A study of Mus musculus with 5 samples.

Results

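Polyamine synthesis and breakdown were followed through 10 genes in bulk RNA-seq of mouse prostate tumors. The genes were taken by symbol from a deposited table of 24527 genes, and all 10 were found and passed the filter on low counts. Odc1, Amd1, Srm and Sms encode the enzymes of synthesis, Sat1, Smox and Paox those of breakdown, and Oaz1, Oaz2 and Azin1 the antizymes and an antizyme inhibitor that set the amount of Odc1 protein. The samples were prostate tissue of 3 castrated and 2 intact TripleTg mice, with 1 library per mouse. All mice, the intact ones included, carried the alleles hHGFtg, H11 hMET/+ and Ctnnb1 L(Ex3)/+ together with PB Cre4. In these mice human HGF is expressed in all tissues, while Cre under the probasin promoter turns on human MET and a stabilized β-catenin in prostate epithelium, so that changes in both are limited to cells in which that promoter has been active. Castration was done at 4 months and tissue was taken at 8 months of age. The 2 groups therefore differed by castration alone among the factors that the labels and methods give.

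Polyamines are small positively charged molecules that bind nucleic acids and are needed for growth. Ornithine decarboxylase (Odc1) turns ornithine into putrescine, and S-adenosylmethionine decarboxylase (Amd1) supplies the aminopropyl groups that spermidine synthase (Srm) and spermine synthase (Sms) add in turn to make spermidine and spermine. In breakdown, Sat1 acetylates spermidine and spermine, Paox oxidizes the acetylated forms, and Smox oxidizes spermine directly. The prostate is known for making and secreting large amounts of polyamines, and Odc1 is a known target of both androgen signaling in rodent prostate and MYC.

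Antizymes bind Odc1 and take it to the proteasome, and antizyme inhibitors such as Azin1 are enzymatically inactive relatives of Odc1 that draw antizyme away. Antizyme protein is made only when the ribosome skips a base at an in-frame stop codon, a step that polyamines favor, and counts of Oaz1 and Oaz2 mRNA do not measure it. The sites are shown because they mark where the mRNA level stops being informative about the protein. Below are 30 coding bases of each gene from GENCODE transcripts, with the stop codon that is bypassed in capitals. The Oaz1 site lies on the plus strand at mm10 chr10:80828283-80828312 and the Oaz2 site on the plus strand at chr9:65686260-65686289, and 27 of the 30 bases were identical between them.
Oaz1: cggtggtgctccTGAtgtccctcacccacc
Oaz2: ctgtggtgctccTGAtgcccctcacccact

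The castrated libraries held 28015507, 18951782 and 20492061 counts, and the intact libraries 21560355 and 22853501, in the order of their replicate numbers. The least counted of the genes, Paox, had between 197 and 323 counts per sample, and the most counted, Sat1, between 5696 and 9943. Differences between samples are given in CPM, counts scaled to library size with TMM factors from edgeR, and levels of different genes in TPM, which also divides counts by gene length. The common dispersion between mice was 0.238, so that spread between animals, more than counting, set the precision of these values.

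The libraries did not all hold the tissue mixture that a prostate label implies, as shown in the plot of marker lists by sample. In castrated replicate 3 the summed CPM of 10 liver genes was 23350, led by Alb (albumin) at 13842, against sums between 4.50 and 62.5 in the other 4 samples. The liver list was added after these values were seen. Secretory products of the normal prostate were nearly absent outside intact replicate 2. The summed CPM of 8 prostate secretory genes was 2227 there, with 1347 from Tgm4 (a prostate transglutaminase), while the other samples had sums between 6.72 and 95.8. Msmb was at 0 in all 5 samples and Pbsn (probasin) at or below 5.21 CPM. Fat genes (10 genes, led by Fabp4) summed to 720 and 672 CPM in castrated replicates 2 and 3 and to between 51.8 and 98.8 in the other samples. Epithelial genes (7 genes, led by Krt8) were abundant in all samples, with sums between 3568 and 5169 CPM. In bulk tissue, fewer cells of a type and less RNA per cell cannot be told apart, and the part of these mixtures in the values below was not tested.

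**Figure D1:**
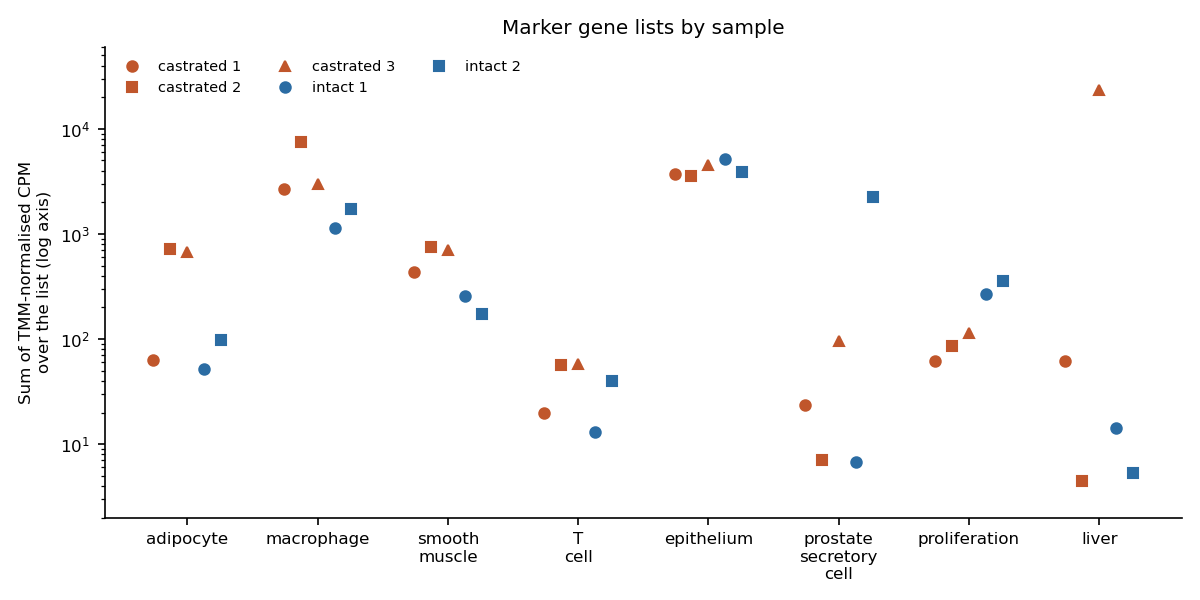
Summed TMM-normalised CPM of each marker list (log axis) in the 3 castrated and 2 intact samples, each point 1 sample. Castrated replicate 3 stands alone at 23350 for the liver list and intact replicate 2 at 2227 for the prostate secretory list.

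Castrated and intact tumors were compared to see whether polyamine genes differed after androgen withdrawal. None of the 10 genes was called different. With the edgeR quasi-likelihood test over 14612 genes, 0 of the 10 had an adjusted p under 0.05 with an absolute log2 fold change above 1, where the share over all genes was also 0%. DESeq2, the likelihood ratio test of edgeR and limma voom called 0 of the 10 as well, where they called 6.79%, 2.53% and 0% of all genes they tested. At an unadjusted p under 0.05, 0 of the 10 genes were found with the edgeR test, against 15% of all genes tested, and the smallest unadjusted p was 0.0957, for Amd1. Of the 10 genes 9 had a lower fitted level in castrated samples and 1, Oaz2, a higher one, and the median log2 fold change was -0.25 against -0.03 over all genes tested. In 1 of the 10, Amd1, every castrated sample lay below both intact samples, where 16.1% of all genes did so. In 0 of the 10 did every castrated sample lie above both intact samples, as 17% of all genes did. These counts cannot show that the genes were alike in the groups, since the 95% intervals reached a fold of 0.22 for Odc1 and of 2.42 for Oaz2. Leaving out castrated replicate 3 left the count at an unadjusted p under 0.05 at 0, and leaving out intact replicate 2 moved it to 2, Odc1 and Smox, both with a lower fitted level in castrated samples. Without an intact replicate the intact group is 1 mouse, which the fit assumes to vary like the castrated mice, and the mouse that remains without intact replicate 2, intact replicate 1, had the highest level of both genes. The number of genes with a lower fitted level was 9 without either of these libraries in turn, and 7 without intact replicate 1.

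**Figure D2:**
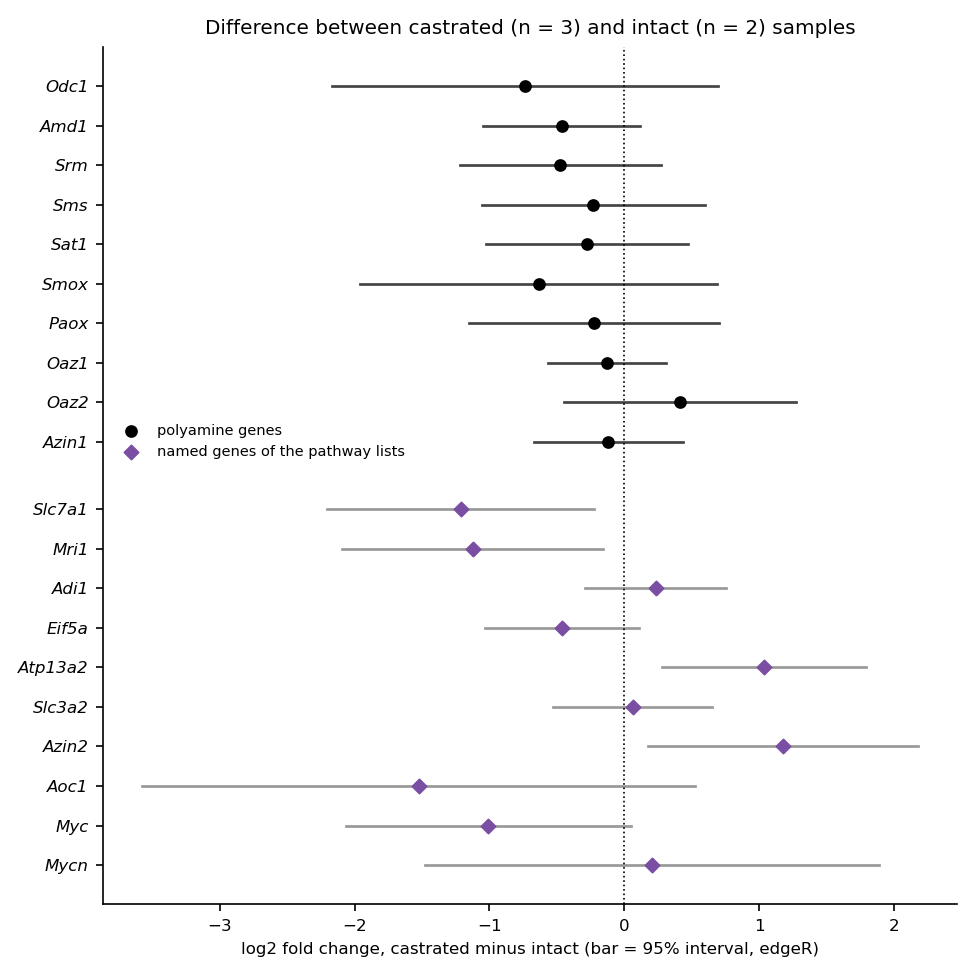
The log2 fold change (castrated minus intact) of the 10 polyamine genes (circles) and of 10 named genes of related pathways (diamonds), with bars for the 95% interval of the edgeR fit. All 10 intervals of the polyamine genes cross 0, from the narrow interval of Oaz1 to the wide one of Odc1. Mat1a and Slc22a3, which are at or near 0 counts in several samples, are not drawn.

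Among the synthesis genes, Odc1 (chromosome 12, 17544873 to 17551502 on mm10) had CPM of 146, 125 and 84.9 in the castrated samples and of 311 and 83.3 in the intact samples, in replicate order here and below. Intact replicate 1 was the highest sample and intact replicate 2 the lowest, so the castrated samples lay between them. Castrated samples averaged 118 ± 30.9 (SD, n = 3) and intact samples 197 ± 161 (SD, n = 2). The log2 fold change was -0.73 with a standard error of 0.57 and a 95% interval from -2.17 to 0.70 (adjusted p = 0.574, edgeR quasi-likelihood test). This value rested on intact replicate 1. Without intact replicate 1 it was 0.53, and without intact replicate 2 it was -1.43 (edgeR, unadjusted p = 0.0104, adjusted p = 0.327). The latter sets 3 castrated mice against intact replicate 1 alone, with the spread taken from the castrated group. The 2 intact mice differed 3.73-fold in Odc1, which was more than the 1.72-fold range among the castrated mice.

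Amd1 (chromosome 10, 40287458 to 40302188) was the gene whose groups did not overlap. Its CPM was 103, 148 and 115 in the castrated and 153 and 184 in the intact samples. Castrated replicate 2 came within a few CPM of intact replicate 1, and on the TPM scale, with 110 in castrated replicate 2 and 107 in intact replicate 2, the groups overlapped. The log2 fold change was -0.46 with a standard error of 0.23 and an interval from -1.04 to 0.12 (adjusted p = 0.394, edgeR quasi-likelihood test), and it stayed between -0.62 and -0.36 when each replicate was left out in turn. Amd2, a near copy, is entered in the deposited table at almost the same place, from 40287465 to 40302186, with 32 to 75 counts per sample. How reads shared by the pair were counted is not given in the sources used here, so the value of Amd1 is uncertain to that extent.

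The aminopropyl transferases were lower in abundance. Srm (chromosome 4, 148591513 to 148594619) had CPM of 28.2, 20.6 and 19.4 in castrated and 25.8 and 37.4 in intact samples. Castrated replicate 1 was above intact replicate 1, and intact replicate 2 was the highest. With all 5 samples the log2 fold change was -0.47 with a standard error of 0.29 (adjusted p = 0.486, edgeR quasi-likelihood test). It was -0.70 without intact replicate 1 and -0.22 without intact replicate 2. Sms (chromosome X, 157443851 to 157492287) had CPM of 18.9, 37.2 and 29.1 in castrated and 33.8 and 32.8 in intact samples. The intact pair lay inside the castrated range, and castrated replicate 1 was the lowest sample. Its log2 fold change was -0.23 (adjusted p = 0.769, edgeR quasi-likelihood test), and -0.01 without castrated replicate 1.

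**Figure D3:**
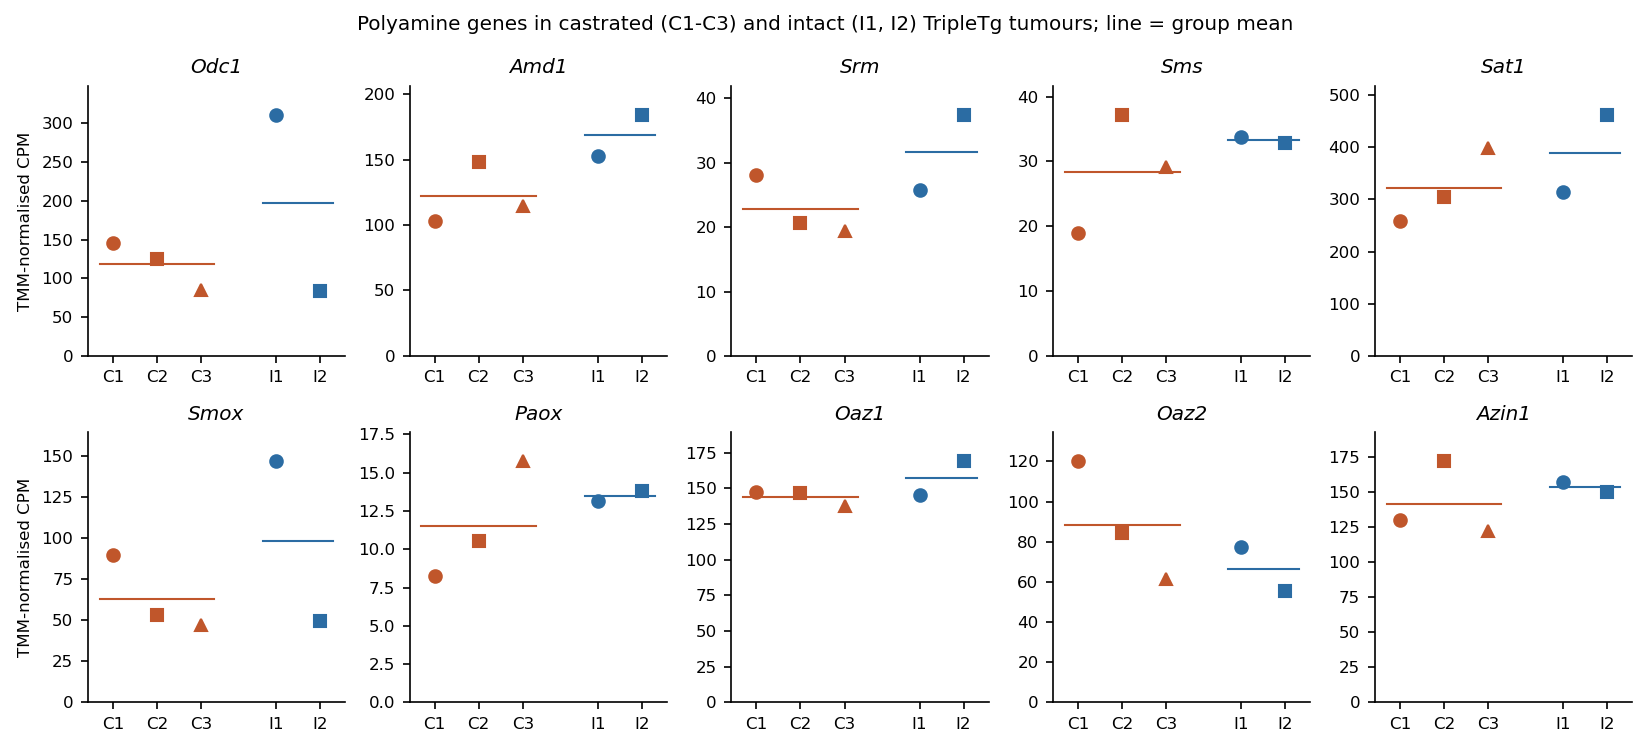
TMM-normalised CPM of each of the 10 genes in castrated replicates 1 to 3 (C1 to C3) and intact replicates 1 and 2 (I1, I2), with a line at each group mean. Odc1 and Smox share a single high sample, intact replicate 1, at 311 and 146 CPM, while Oaz1 stays between 138 and 169 CPM in all samples.

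Of the breakdown genes, Sat1 (chromosome X, 155213126 to 155216449), which makes the acetylated polyamines that leave the cell, was the most abundant. Its CPM was 259, 305 and 399 in castrated and 315 and 462 in intact samples. Castrated replicate 3 and intact replicate 2 were the highest in their groups, and the groups overlapped. Castrated minus intact, the log2 fold change was -0.27 with a standard error of 0.30 (adjusted p = 0.692, edgeR quasi-likelihood test), and -0.01 without intact replicate 2. Paox (chromosome 7, 140125657 to 140134334), which acts on the products of Sat1, had CPM of 8.23, 10.6 and 15.7 in castrated and 13.1 and 13.8 in intact samples. It followed the same order as Sat1 among the castrated samples, with replicate 1 lowest and replicate 3 highest, and had a log2 fold change of -0.23 (adjusted p = 0.797, edgeR quasi-likelihood test). That value was -0.51 without castrated replicate 3 and -0.03 without castrated replicate 1.

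Smox (chromosome 2, 131491862 to 131525183), the spermine oxidase that yields hydrogen peroxide, had CPM of 89.5, 53.0 and 46.9 in castrated and 146 and 49.5 in intact samples. As for Odc1, intact replicate 1 was the highest sample, castrated replicate 1 came next, and castrated replicate 3 and intact replicate 2 were low. The intact mice differed 2.96-fold. Between the groups, the log2 fold change was -0.63 with a standard error of 0.52 and an interval from -1.96 to 0.69 (adjusted p = 0.600, edgeR quasi-likelihood test). It was 0.37 without intact replicate 1 and -1.26 without intact replicate 2 (edgeR, unadjusted p = 0.0324, adjusted p = 0.339), the latter again against intact replicate 1 alone with the spread of the castrated group.

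Oaz1 (chromosome 10, 80826656 to 80829290), the main antizyme, was the steadiest of the 10 genes. Its CPM was 147, 147 and 138 in castrated and 146 and 169 in intact samples. From lowest to highest sample it spanned 0.30 on the log2 scale, and only 3.64% of the genes tested had a smaller range. In the fit, the log2 fold change was -0.13 with an interval from -0.57 to 0.31 (adjusted p = 0.756, edgeR quasi-likelihood test). A pseudogene row that overlaps it, Oaz1-ps, held 4 to 20 counts per sample against at least 2732 for Oaz1. Oaz2 (chromosome 9, 65676548 to 65690300), a second antizyme, had CPM of 120.0, 84.1 and 61.3 in castrated and 77.1 and 55.7 in intact samples. Castrated replicates 1 and 2 were above both intact samples and castrated replicate 3 lay between these. Its log2 fold change was 0.41 with a standard error of 0.34 (adjusted p = 0.599, edgeR quasi-likelihood test). When each replicate was left out, it ran from 0.13 (without castrated replicate 1) to 0.69 (without intact replicate 1). Azin1 (chromosome 15, 38487430 to 38519266) had CPM of 130.2, 172 and 122 in castrated and 157 and 149.9 in intact samples, with the intact pair inside the castrated range. Its log2 fold change was -0.12 (adjusted p = 0.827, edgeR quasi-likelihood test).

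Per length, Sat1 led with a mean TPM of 612 over the 5 samples, followed by Oaz1 with 315 and Odc1 with 138. Oaz2 (99.7), Amd1 (98.7), Smox (79.6) and Azin1 (64.3) had intermediate mean TPM, and Srm (44.4), Sms (18.2) and Paox (15.8) the lowest. The ranges over samples did not touch between Sat1 and Oaz1, between Azin1 and Srm or between Srm and Sms. All other neighbors in this order overlapped, including Oaz1 and Odc1, since Odc1 ran from 60.9 to 303 TPM and Oaz1 from 293 to 336. On the log2 CPM scale Odc1 spanned 1.90, a range wider than that of 70.6% of the genes tested.

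**Figure D4:**
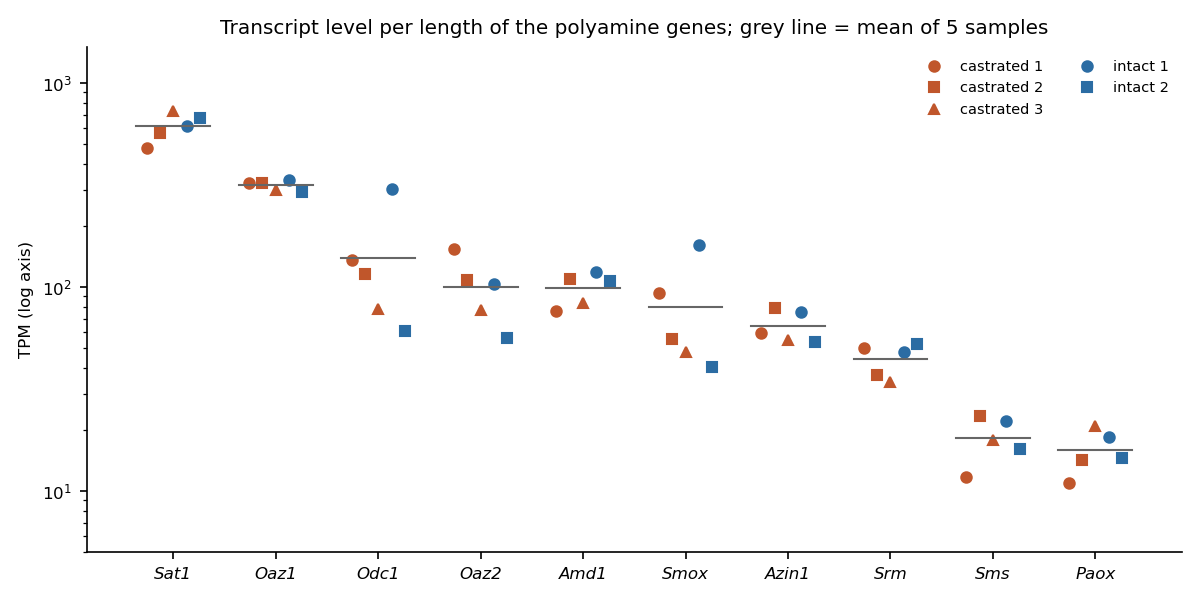
TPM of the 10 genes (log axis), ordered by the mean of the 5 samples (grey line), each point 1 sample. Sat1 is highest at 479 to 727 TPM and Paox lowest, and Odc1 spreads from 60.9 to 303 TPM.

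Ratios within a sample do not depend on the scaling between samples. The TPM of Sat1 over that of Odc1 was 3.55, 4.89 and 9.37 in castrated and 2.02 and 11.1 in intact samples. The intact mice thus held the lowest and the highest ratio. The summed TPM of the 3 breakdown genes over that of the 4 synthesis genes was 2.14, 2.23 and 3.74 in castrated and 1.61 and 3.09 in intact samples. It was above 1 in all 5 samples, and the groups overlapped. Sat1 alone made up 77.4% to 92.4% of the breakdown sum, and Smox and Paox together came to between 0.234 and 0.382 of the synthesis sum. The TPM of Oaz1 over that of Odc1 was 2.39, 2.79 and 3.84 in castrated and 1.11 and 4.81 in intact samples. Oaz1 came closest to Odc1 in intact replicate 1. The other antizyme, Oaz2, had TPM of 153, 108 and 77.3 in castrated and 104 and 56.1 in intact samples, against 135, 116 and 77.7 and 303 and 60.9 for Odc1, so that the 2 genes lay far apart in intact replicate 1 alone. The TPM of Azin1 over that of Oaz1 stayed between 0.183 and 0.243.

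Odc1 and Smox, at opposite ends of the pathway, had like patterns over the 5 samples. The TPM of Smox over that of Odc1 was 0.690, 0.479 and 0.621 in castrated and 0.530 and 0.668 in intact samples, a 1.44-fold range. Odc1 over Amd1, its partner in synthesis, had a 4.49-fold range, from 0.571 in intact replicate 2 to 2.56 in intact replicate 1. The likeness was measured as the Euclidean distance between patterns of log2 CPM centered on the gene's mean over the 5 samples, where 0 is the same pattern. Smox, with a distance of 0.451, ranked 28 among all genes tested, and the other 8 polyamine genes had distances between 1.39 and 2.02. The 5 genes nearest to Odc1 were Pvr (distance 0.156), an adhesion receptor of the cell surface, Dock4 (0.213), an exchange factor for Rac, Mllt11 (0.242), Bcl6b (0.254), a transcriptional repressor, and Mex3a (0.255), an RNA-binding protein. Pvr had CPM of 55.4, 52.7 and 33.1 in castrated and 123 and 30.4 in intact samples, with the same high sample as Odc1. These distances rest on 5 samples, of which intact replicate 1 deviated most in Odc1 and Smox. Intact replicate 1 also had the highest Epcam (an epithelial adhesion molecule), with 1325 CPM against 511 to 736 in the other samples, and the lowest Krt5 (a basal cell keratin), with 28.9 against 90.5 to 405 CPM. Their part in the Odc1 and Smox values was not tested.

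**Figure D5:**
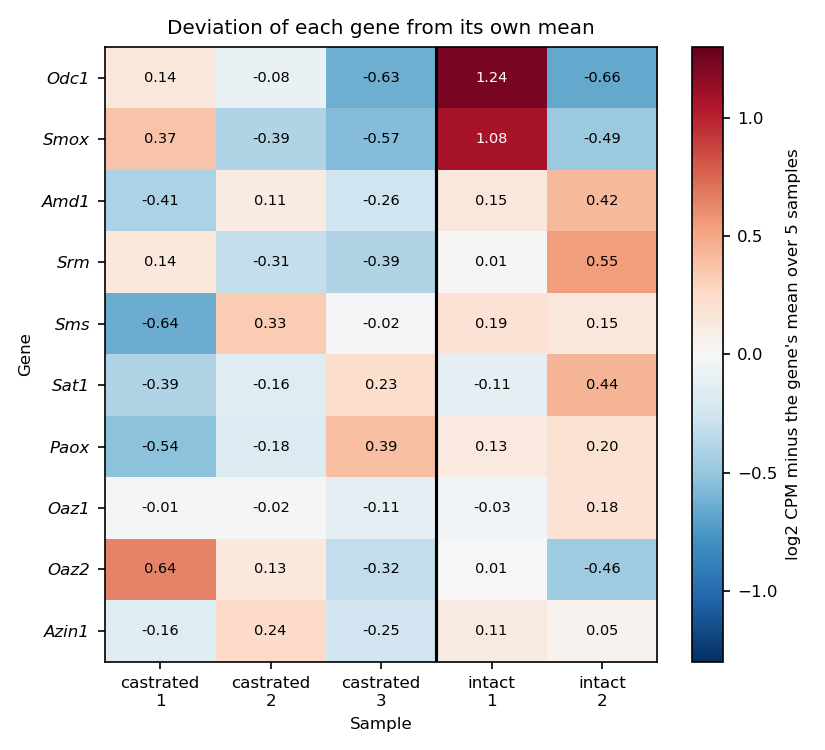
Deviation of each gene's log2 CPM from its mean over the 5 samples (color and printed value), with castrated samples left and intact samples right of the black line. Odc1 and Smox both stand out in intact replicate 1, at 1.24 and 1.08, and Oaz1 lies within 0.18 of its mean in all samples.

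The promoters of these 2 genes are printed because their mRNA levels varied together. RefSeq start sites on GRCm38.p6, the mm10 assembly, were matched by symbol for 8 of the 10 genes, with 10 entries in all since Sms and Paox have 2 each. Srm and Azin1 had no entry. Below are the 250 bases before the start, 5′ to 3′ on the gene's strand, at chr12:17544623-17544872 for Odc1 and chr2:131491612-131491861 for Smox, both plus strand. Capitals mark GC boxes (GGGCGG or, read on the other strand, CCGCCC), the letters that Sp1 family factors bind.
Odc1: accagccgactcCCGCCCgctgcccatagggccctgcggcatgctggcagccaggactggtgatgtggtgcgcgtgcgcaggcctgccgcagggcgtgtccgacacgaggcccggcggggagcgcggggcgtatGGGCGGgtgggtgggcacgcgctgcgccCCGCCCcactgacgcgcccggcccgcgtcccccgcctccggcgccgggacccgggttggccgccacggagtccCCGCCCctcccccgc
Smox: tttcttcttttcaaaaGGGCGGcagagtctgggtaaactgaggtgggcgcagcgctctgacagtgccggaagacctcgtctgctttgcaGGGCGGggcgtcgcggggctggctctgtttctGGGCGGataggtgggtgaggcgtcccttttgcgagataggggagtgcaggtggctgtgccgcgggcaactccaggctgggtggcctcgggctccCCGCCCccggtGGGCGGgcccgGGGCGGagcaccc
Odc1 held 4 and Smox 6 of these boxes, none overlapping. Their G and C content was 80.0% and 68.0%. A GC box was present in 8 of the 10 entries of the polyamine genes and in 32.7% of 32851 RefSeq promoters over the same 250 bases. The 32851 promoters were not matched to these entries in G and C content. Whether the boxes have a part in the mRNA levels was not tested. The 2 Paox windows overlap and share a GC box, so the entries are not all separate promoters. The E-box CACGTG, which reads the same on both strands and is bound by MYC with MAX, was in 1 of the 10 entries, an Sms start site, and in 6.02% of all promoters. The GC box was searched for after the sequences had been seen, and the known MYC sites of Odc1 lie in its first intron, outside these windows.

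Genes that feed, use or move polyamines were read from 5 lists of 34 genes, of which 28 passed the filter. In these lists 13 genes had a higher and 15 a lower fitted level in castrated samples, 0 were called, and 7 had an unadjusted p under 0.05 in the edgeR test, against 15% of all genes tested. DESeq2, which gave no result for Mat1a, and limma voom also called 0, and the likelihood ratio test called 1, Mat1a. With an absolute log2 fold change above 1 as well, 4 were higher and 2 lower, where the shares over all genes were 7.66% higher and 3.26% lower. The median log2 fold change was -0.12 over the 28 genes. Agmat, Atp13a4, Slc22a2, Slc47a1, Oaz3 and Satl1 were below the filter.

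Of the genes that supply arginine, ornithine and S-adenosylmethionine, 8 of 9 were tested, 4 higher and 4 lower, with 3 at an unadjusted p under 0.05, against 15% of all genes (median log2 fold change 0.13). Slc7a1, the main importer of arginine, had CPM of 111, 83.6 and 44.6 in castrated and 201 and 168 in intact samples. All castrated samples lay below both intact samples, with a log2 fold change of -1.21 and a standard error of 0.39 (adjusted p = 0.301, edgeR quasi-likelihood test). It stayed between -1.52 and -0.92 when each replicate was left out. Mat1a, the S-adenosylmethionine synthetase of liver, had 45, 12 and 2427 counts in castrated and 0 and 1 in intact samples. Nearly all its counts were in castrated replicate 3, the library with the liver transcripts, so no fold is given. The third gene at an unadjusted p under 0.05 was Mat2a, the synthetase of other tissues, which the naming rule does not include and which was chosen after its values were seen. Its CPM was 313, 215 and 193 in castrated and 437 and 396 in intact samples, with a log2 fold change of -0.79 (adjusted p = 0.310, edgeR quasi-likelihood test).

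Methylthioadenosine, the by-product of spermidine and spermine synthesis, is salvaged to methionine. All 5 genes of the list were tested, 2 higher and 3 lower (median log2 fold change -0.04). Mri1, the isomerase of this route, had CPM of 21.4, 11.7 and 11.3 in castrated and 26.7 and 37.9 in intact samples, without overlap. Its log2 fold change was -1.12 with a standard error of 0.38 (adjusted p = 0.309, edgeR quasi-likelihood test). Adi1, a dioxygenase and the most abundant of the list, had CPM of 42.4, 50.1 and 55.5 in castrated and 41.0 and 43.0 in intact samples, with a log2 fold change of 0.23 (adjusted p = 0.628, edgeR quasi-likelihood test).

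Spermidine is also the donor for hypusine, an amino acid found in the translation factor Eif5a. All 4 genes of that list were tested (median log2 fold change -0.36). In CPM, 3 of them had every castrated sample below both intact samples, against 16.1% of all genes. At an unadjusted p under 0.05 in the edgeR test there were 0, against 15%. Eif5a, the most abundant, had CPM of 449.7, 405 and 355 in castrated and 568 and 543 in intact samples. With all 5 samples the log2 fold change was -0.46 with a standard error of 0.23 (adjusted p = 0.389, edgeR quasi-likelihood test). Dhps and Dohh, the enzymes that make hypusine, were the other genes without overlap in CPM. Their log2 fold changes were -0.26 and -0.70 (adjusted p = 0.597 and 0.517, edgeR quasi-likelihood test). On the TPM scale the groups overlapped in Eif5a, with 526 in castrated replicate 1 and 502 in intact replicate 2. They also overlapped in Dhps, with 44.8 in castrated replicate 2 and 37.6 in intact replicate 2, but not in Dohh. Dhps and Dohh fall outside the naming rule and are given for their order only.

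Of 10 transport genes 7 were tested, 4 higher and 3 lower, with 2 at an unadjusted p under 0.05, against 15% of all genes (median log2 fold change 0.06). Atp13a2, a lysosomal pump that exports polyamines to the cytosol, had CPM of 97.8, 107 and 67.6 in castrated and 52.6 and 36.2 in intact samples. Every castrated sample lay above both intact samples, and the log2 fold change was 1.03 with a standard error of 0.30 (adjusted p = 0.294, edgeR quasi-likelihood test). It was between 0.75 and 1.35 when each replicate was left out. Slc3a2, the heavy chain of amino acid exchangers and the most abundant of the list, had CPM of 195, 243 and 217 in castrated and 244 and 174 in intact samples, with a log2 fold change of 0.06 that was below 0 without castrated replicate 2 or intact replicate 2 (-0.02 and -0.20). Slc22a3, an organic cation transporter, had 10, 61 and 154 counts in castrated and 9 and 1 in intact samples, and its groups overlapped in CPM.

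Of 6 paralogs and further breakdown genes 4 were tested, 2 higher and 2 lower (median log2 fold change 0.43). Azin2, a second antizyme inhibitor, had CPM of 9.39, 11.1 and 9.31 in castrated and 5.60 and 3.16 in intact samples. The castrated samples all lay above the intact pair, with a log2 fold change of 1.18 and a standard error of 0.40 (adjusted p = 0.308, edgeR quasi-likelihood test). Per length it was scarce, with a mean TPM of 6.42 against 64.3 for Azin1. Aoc1, a diamine oxidase that degrades putrescine, had CPM of 6.70, 5.52 and 6.77 in castrated and 3.99 and 32.5 in intact samples. Intact replicate 2 alone was high, and the log2 fold change of -1.52 (adjusted p = 0.424, edgeR quasi-likelihood test) was 0.62 without it.

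Known transcriptional regulators of Odc1 were variable between mice as well. Myc had CPM of 69.2, 89.8 and 51.1 in castrated and 196 and 85.9 in intact samples. Its highest sample, intact replicate 1, was that of Odc1. Castrated replicate 2 was above castrated replicate 1 in Myc and below it in Odc1. The part of Myc in the Odc1 values was not tested. The log2 fold change of Myc was -1.01 with an interval from -2.07 to 0.05 (adjusted p = 0.345, edgeR quasi-likelihood test), and -0.27 without intact replicate 1. Mycn was low, between 0.76 and 2.39 CPM, with overlap between the groups and a log2 fold change of 0.21 (adjusted p = 0.907, edgeR quasi-likelihood test) that was below 0 without castrated replicate 3 or intact replicate 1 (-0.15 and -0.32).

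Other cell and growth markers were uneven between the samples, beside these genes. All 8 proliferation genes, led by Mki67, had lower CPM in every castrated than in both intact samples and an unadjusted p under 0.05 in the edgeR test, against 16.1% and 15% of all genes. Their sums were 61.2, 85.3 and 113 CPM in castrated and 269 and 356 in intact samples. Of the 10 macrophage and the 10 smooth muscle genes (led by Acta2), 9 each had all castrated samples above the intact pair, against 17% of all genes. Macrophage sums, led by Lyz2, were 2676, 7445 and 3008 CPM in castrated and 1136 and 1733 in intact samples, and smooth muscle sums were 432, 754 and 704 CPM in castrated and 256 and 172 in intact samples. Sums of 7 T cell genes, led by Cd4, were 20.0, 57.0 and 58.5 CPM in castrated and 13.1 and 40.3 in intact samples. The smallest adjusted p of any of these markers was 0.289 (edgeR quasi-likelihood test). Proliferation was highest in intact replicate 2, while Odc1 was lowest there. The part of these markers in the values of the polyamine genes was not tested.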

How the data were processed

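RNA of prostate tissue was made into ribosomal RNA-depleted total RNA libraries and sequenced in paired ends. Per the submitters' processing notes the authors used Trimmomatic 0.39, STAR 2.7.9 with mm10 and HTSeq 2.0.2. The values the authors deposited are raw read counts per gene, with a gene length column in kilobases that was used only for TPM. The strand setting of the counting is not given in the sources used here, so overlapping genes are uncertain.

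Groups and replicate numbers came from the labels. With R 4.3.3, genes with CPM above 1 in at least 2 samples were fitted with TMM scaling in edgeR 4.0.16 (quasi-likelihood F-test, castrated minus intact, no covariates). With all samples p-values were adjusted over 14612 genes by the Benjamini-Hochberg method, and in each alternative over the genes it tested, and a call needed an adjusted p under 0.05 and a log2 fold change beyond 1 in either direction. The methods of the paper name the same filter and test with TPM as input, which was an alternative here, since the table holds counts. Intervals are 95%. Standard errors were taken from the fold change and the F statistic. TPM, ratios, sums and distances (prior count 2) are descriptions. DESeq2 1.42.0, limma 3.58.1 (voom), 3 scalings, 3 filters, TPM, no fold change threshold, the replicate block and leaving out each replicate were alternatives, and the older quasi-likelihood fit was added after seeing the data.

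The 10 genes and all lists were chosen with earlier results of these data known. Text names all 10, the genes of the related lists past the same fold change threshold at an unadjusted p under 0.05, the most abundant of each list, the regulators of Odc1, and the 5 genes nearest to Odc1, except that some of them are not reported here. Libraries of a group were not copies of each other, with a chi-square per gene of at least 116 between them. The table has no rows for the human transgenes or Cre. With 3 and 2 mice, p-values of the edgeR test weigh the group difference against the spread between mice. That spread is estimated in part from all genes tested.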

Additional observations from a re-analysis of the deposited data

How the results depend on the processing

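The count of 0 called polyamine genes was the same under all 18 alternatives, and the direction of the 10 genes held in 168 of 170 recomputed values. The exceptions were Odc1 (0.53) and Smox (0.37) without intact replicate 1. Leaving out each replicate gave log2 fold changes from -1.43 to 0.53 for Odc1 and from -1.26 to 0.37 for Smox, and among related genes from -2.34 to 0.62 for Aoc1, from -0.32 to 1.06 for Mycn and from -0.20 to 0.35 for Slc3a2. The number of polyamine genes at an unadjusted p under 0.05 was 0 to 2. Where an intact replicate is left out, the other is assumed to vary like the castrated group. Over all genes, leaving out a replicate gave 0 to 1 called genes, the 1 (Coch, lower, named after its value was seen) without intact replicate 1, and 867 to 2570 genes (1596 with all samples) at an unadjusted p under 0.05 with an absolute log2 fold change above 1. DESeq2 called 989 genes (703 higher, 286 lower) and the likelihood ratio test 369 (276 higher, 93 lower), with 0 polyamine genes in both, and the cause was not tested. The 10 genes had at least 197 counts in every sample, so counting error was small beside the spread between mice.

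Same-numbered samples are different animals, and the labels give no pairing beyond the number. Their deviations from the group means correlated at 0.15 and -0.05. With 2 intact samples the intact deviations mirror each other, so these values cannot decide whether the numbers pair the samples. With the replicate block the 1596 genes became 975 and the smallest p of a polyamine gene was 0.0834, for Oaz2 (adjusted p = 0.727, edgeR quasi-likelihood test).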

Other observations

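The following 2 genes of the related lists lie outside the naming rule and were chosen after their values were seen. Mtap, which opens the salvage of methylthioadenosine, had CPM of 77.5, 72.8 and 60.0 in castrated replicates 1, 2 and 3 and of 13.1 and 69.3 in intact replicates 1 and 2, so that intact replicate 1, the sample with the highest Odc1, Smox and Myc, was the lowest. Oat, which links ornithine to proline and glutamate, had CPM of 279, 269 and 343 in castrated and of 158 and 228 in intact samples, with every castrated sample above the intact pair and a log2 fold change of 0.62 (adjusted p = 0.344, edgeR quasi-likelihood test).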
